A study of Mus musculus with 8 samples.

Results

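The 32 genes described here are genes by which macrophages and other white blood cells (leukocytes) are known, measured in mouse hearts whose cells were labelled as cardiomyocytes. They were taken as a list of symbols, chosen with earlier results of these data known. All 32 were found among the 51826 gene identifiers of the count table. By role they were 4 genes of all leukocytes, 14 of macrophages and related myeloid cells, 3 of complement C1q, 6 of resident heart macrophages, 1 of macrophages recruited from blood monocytes, 2 of lymphocytes and 2 of neutrophils. The study compared wild-type (WT) animals with animals lacking LncSync, a long noncoding RNA (KO, genotype LncSync-/-), as mid-gestation embryos (embryonic age e13.5) and as adults. That gave 4 groups, WT e13.5, KO e13.5, WT adult and KO adult, each with 2 libraries, and all 8 carried the strain label C57BL/6, the tissue heart and the cell type cardiomyocyte. The allele was labelled as null with no Cre or promoter, and the labels give no isolation method, no age of the adults and no number of animals per library. Whether 2 libraries of a group stem from different animals is not in the labels either, so p-values here rest on a spread between libraries that may be technical.

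Macrophages enter the heart before birth, first from the yolk sac and then from the fetal liver, and part of them maintain themselves there into adult life. Their survival depends on the receptor Csf1r and its ligands Csf1 and Il34, and their gene programme on the transcription factor PU.1, the product of Spi1. Resident heart macrophages are known by the scavenger and uptake receptors Mrc1, Cd163, Folr2 and Timd4 and lack Ccr2, the chemokine receptor that draws monocytes out of the blood. They clear dying cells and debris, and they make the C1q chains, which tag such material. In RNA of a whole cell preparation, fewer cells of a type and less RNA per cell cannot be told apart.

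PU.1 binds a purine-rich site around GAGGAA, so the 250 bases before each start site were searched for these letters on both strands. RefSeq promoters on the GRCm38.p6 build were at hand for 25 of the 32 genes. The longer form GAGGAAGT, or ACTTCCTC on the other strand, was found in 3 of the 25 (C1qc, Pf4 and S100a8) and in 2.79% of all 27025 genes with a promoter in the table. The short form GAGGAA, which is contained in the longer one, or its complement TTCCTC was found in 15 of the 25 and in 25.9% of all genes. Pf4 is printed below for the longer form, C1qb, Itgam and F13a1 as genes with the short form that were higher in adults of one or both genotypes, and Cd163 as another such gene without a match. Each reads 5′ to 3′ on the strand of its gene, up to the base before the start site, with GAGGAA or TTCCTC in capitals.
Pf4: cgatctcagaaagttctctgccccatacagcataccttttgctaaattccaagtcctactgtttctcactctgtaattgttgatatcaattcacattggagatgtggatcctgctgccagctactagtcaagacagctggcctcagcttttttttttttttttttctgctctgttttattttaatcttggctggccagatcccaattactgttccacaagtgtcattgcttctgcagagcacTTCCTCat
C1qb: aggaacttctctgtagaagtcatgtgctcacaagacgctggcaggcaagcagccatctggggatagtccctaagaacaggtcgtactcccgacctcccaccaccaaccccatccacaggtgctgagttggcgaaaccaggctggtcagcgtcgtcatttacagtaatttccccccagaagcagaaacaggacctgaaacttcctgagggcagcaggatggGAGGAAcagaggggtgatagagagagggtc
Itgam: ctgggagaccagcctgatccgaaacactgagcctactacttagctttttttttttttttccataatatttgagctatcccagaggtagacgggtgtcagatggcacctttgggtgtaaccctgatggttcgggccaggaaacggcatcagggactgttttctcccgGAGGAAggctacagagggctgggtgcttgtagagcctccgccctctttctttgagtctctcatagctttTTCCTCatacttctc
F13a1: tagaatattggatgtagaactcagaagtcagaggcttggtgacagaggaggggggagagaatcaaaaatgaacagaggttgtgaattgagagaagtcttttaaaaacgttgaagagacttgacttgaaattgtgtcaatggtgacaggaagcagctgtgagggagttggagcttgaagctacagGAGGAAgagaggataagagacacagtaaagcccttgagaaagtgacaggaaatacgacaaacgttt
Cd163: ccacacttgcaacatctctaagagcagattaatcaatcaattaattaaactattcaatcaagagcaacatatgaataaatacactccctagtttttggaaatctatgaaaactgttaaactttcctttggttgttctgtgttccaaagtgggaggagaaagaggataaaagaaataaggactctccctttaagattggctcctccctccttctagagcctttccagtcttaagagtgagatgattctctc
The Pf4 stretch is chr5:90772185-90772434 on the plus strand and the C1qb stretch chr4:136886201-136886450 on the minus strand. The Itgam stretch is chr7:128062390-128062639 on the plus strand, the F13a1 stretch chr13:37050245-37050494 on the minus strand, from the start site of F13a1 farther upstream, and the Cd163 stretch chr6:124304401-124304650 on the plus strand. The match in Pf4 begins at position -8, counted from -1 at the base before the start site, that in C1qb at -30, those in Itgam at -84 and -15 and that in F13a1 at -66. A match of letters is a description and not a bound site, and no measurement here bears on binding.

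Libraries held 16495084 to 20395600 counts, and 3 counts in 1 library corresponded to 0.103 to 0.207 CPM, the counts set to an equal total per library after TMM scaling. The label cardiomyocyte was checked against 10 genes of that cell, such as Myh6 and Ryr2, and their summed level was 14040 to 35554 CPM at e13.5 and 62612 to 85087 CPM in adults. LncSync was not found by name in the table, so the deletion was not checked. Haemoglobin and other erythroid RNA was high in the e13.5 libraries, with 42029 and 19458 summed CPM over 7 genes in WT and 153755 and 22154 in KO, and 16.8 to 179.6 in adults. Of the 32 leukocyte genes, 26 had at least 1 count in every library. After the filter on low counts 31 were tested, all but the B cell gene Cd79a, and 6 of these passed through 1 age alone: Cd163, Timd4 and Ccr2 through adults, and Cd3e, S100a8 and S100a9 through embryos. The ages also differed in RNA make-up: the mitochondrial share ran from 3.21 to 4.36% in embryos and from 22.6 to 28.8% in adult libraries, and that of ribosomal RNA genes from 5.66 to 11.4% and from 0.0971 to 0.176%. An e13.5 library detected 20118 to 23362 genes, an adult library 17556 to 18529. The part of these in the age differences was not tested.

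Together the 32 genes made up 129 and 172 CPM in the WT e13.5 libraries, 227 and 217 in KO e13.5, 548 and 329 in WT adults and 809 and 484 in KO adults. Every adult library lay above every e13.5 library, and the ratio of adult to e13.5 means was 2.91 in WT and 2.91 in KO. The ratio of KO to WT means was 1.48 at e13.5, where the libraries did not overlap, and 1.47 in adults, where they did. Lyz2, which encodes lysozyme of macrophages and neutrophils, took the first place per kilobase of exon in all 4 groups, with 21.5, 29.9, 66.1 and 125 CPM per kb in WT e13.5, KO e13.5, WT adult and KO adult. In KO e13.5 that place rests on library 1 (47.7), since library 2 held 12.0 CPM per kb of Lyz2 against 16.1 of C1qb and 12.7 of C1qa. Lyz2 alone made up 18.8, 17.7, 19.8 and 25.5% of the summed CPM in these groups. Of the 227 CPM in KO e13.5 library 1, Lyz2 held 62.8 and Cd14 29.2. The WT e13.5 libraries held 32.6 and 24.1 CPM of Lyz2 and 4.47 and 3.99 of Cd14. How far the gap between the e13.5 sums rests on these genes was not tested. In WT adults C1qa, C1qb and C1qc followed at 29.6, 24.9 and 13.7 CPM per kb, levels whose order is not separated by their spread for C1qa and C1qb (SD 9.02 and 4.59). Cd163, at the foot of the WT e13.5 order with 0.00422 CPM per kb, was among the genes that moved most.

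**Figure D1:**
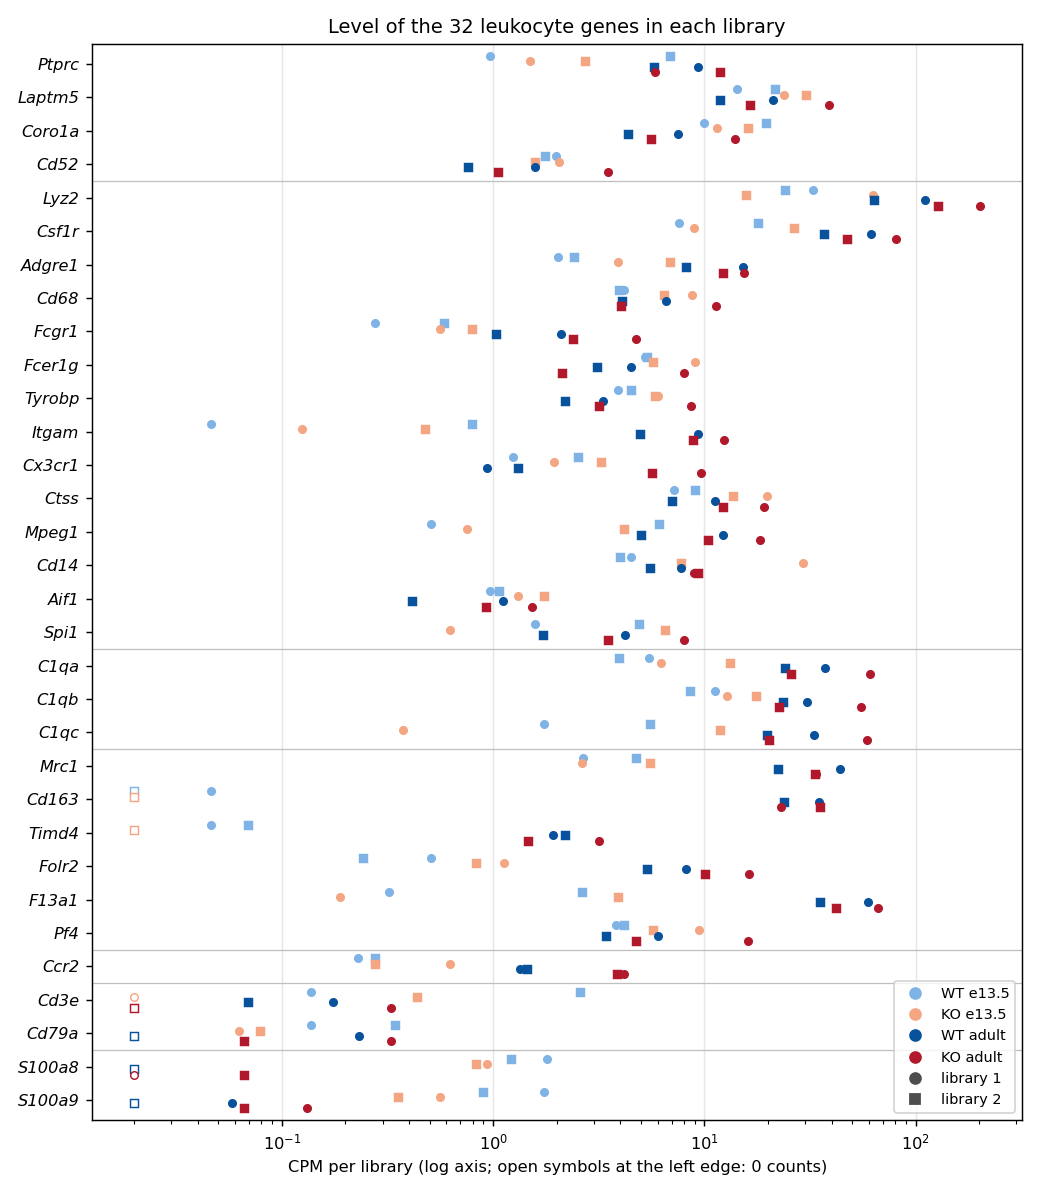
Level of each of the 32 leukocyte genes in each of the 8 libraries, grouped by role, in CPM on a log axis, with genes at 0 counts drawn at the left edge. Pan-leukocyte genes overlap between the ages, whereas Cd163, Folr2, Timd4 and F13a1 have all 4 adult libraries above all 4 e13.5 libraries. The same holds for Mrc1 and for genes of other roles, such as Csf1r, Itgam, Ccr2 and the C1q chains.

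Adult hearts against e13.5 hearts showed the clearest differences of the list. In WT, 11 of 31 tested members (35.5%) were higher in adults and 2 (6.45%) were lower, where 17.8% of all 16623 genes tested were higher and 21.1% lower (edgeR quasi-likelihood test, Benjamini-Hochberg adjusted p below 0.05). In KO, 11 of 31 were higher and 1 (3.23%) was lower, where 20.5% of all genes were higher and 20.9% lower. The higher members shared by both genotypes were 9 of the 11 in each: Csf1r, Mrc1, Cd163, C1qa, Itgam, Ccr2, Timd4, Folr2 and F13a1. Of these, Cd163, Timd4 and Ccr2 passed the filter on low counts through adults alone. The lower members, S100a8 in both genotypes and S100a9 in WT, passed it through e13.5 alone. The counts of higher and lower members are therefore partly set by the filter. The median log2 fold change of the 31 was 0.94 in WT and 1.35 in KO, against -0.26 and -0.15 over all genes tested. Without WT adult replicate 1, 5 members were higher in WT, and without KO adult replicate 1, 6 were higher in KO. Leaving out an adult library also lowered the calls over all genes, from 6463 to 2990 and 3001 in WT and from 6883 to 4181 and 3710 in KO. Members short of the threshold passed in part of the alternatives as well, in KO C1qc in 8 of 20, Mpeg1 in 8, C1qb in 5 and Adgre1 in 4, and in WT C1qc in 9, Lyz2 in 9 and Mpeg1 in 3.

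**Figure D2:**
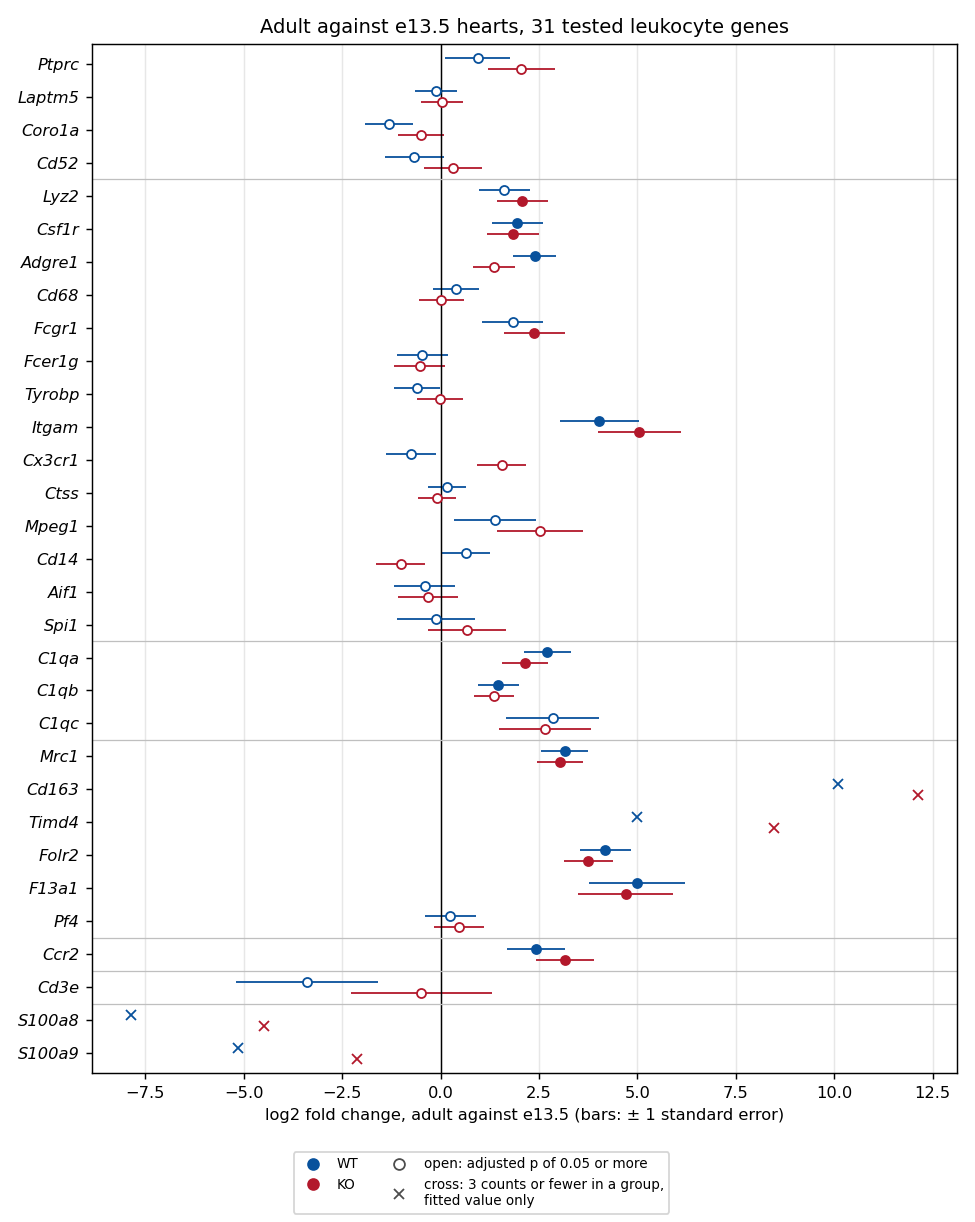
Log2 fold change of adults against e13.5 for the 31 tested leukocyte genes, in WT and in KO, with bars of 1 standard error; filled points passed an adjusted p of 0.05 and crosses mark fitted values that rest on 3 counts or fewer in a group. Mrc1, Cd163, Timd4, Folr2 and F13a1 lie far to the right in both genotypes, Pf4 does not, and S100a8 and S100a9 lie to the left.

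Resident macrophage genes rose most, with 5 of 6 higher in both genotypes (all but Pf4) and medians of 4.58 in WT and 4.23 in KO on the log2 scale. Cd163 and Timd4 passed the filter on low counts through adults alone, so a difference in these is partly set by the filter, while Mrc1, Folr2 and F13a1 passed it at both ages. Cd163, the receptor that takes up haemoglobin-haptoglobin complexes, was at 0.0461 and 0 CPM in WT e13.5 and 0 and 0 in KO e13.5, which is 1 count in 1 of the 4 libraries, against 34.7 and 23.7 in WT adults and 23 and 35.1 in KO adults. As a ratio of counts it was 1505 times higher in WT adults (95% counting interval 269 to 59494) and at least 399-fold higher in KO adults, taking 3 counts over both KO e13.5 libraries as the floor. Adjusted p was 0.000265 in WT and 0.000227 in KO (edgeR). Timd4, a receptor for phosphatidylserine on dying cells, was at 0.0461 and 0.0689 CPM in WT e13.5, 0 and 0 in KO e13.5, 1.92 and 2.2 in WT adults and 3.16 and 1.46 in KO adults. Its ratio of counts was 34.7 in WT (11.4 to 173), and in KO it was at least 31.8-fold higher. No e13.5 library reached the lowest adult level of either gene. Intervals and floors here and below cover counting error only, since reads without molecular identifiers are not independent molecules.

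F13a1, the A chain of coagulation factor XIII, was at 0.323 and 2.62 CPM in WT e13.5 and 0.188 and 3.88 in KO e13.5, and at 59.7 and 35.3 in WT adults and 66.7 and 42 in KO adults. Its log2 difference was 4.98 ± 1.22 in WT and 4.70 ± 1.20 in KO (adjusted p 0.0111 and 0.0125). Without KO adult replicate 1 the KO value missed the threshold (adjusted p 0.0567). Library 2 of both e13.5 groups was well above library 1 for this gene, yet both stayed far below the adults. Folr2, a folate receptor of tissue macrophages, rose from 0.507 and 0.241 CPM to 8.21 and 5.37 in WT (log2 4.18 ± 0.65, adjusted p 0.00131) and from 1.13 and 0.831 to 16.3 and 10.1 in KO (3.75 ± 0.62, 0.00164). Gm10602 overlaps 63.1% of the exon bases of Folr2 on the other strand, and the sources do not say whether counting used strand. If counting did not use strand, reads from the shared bases cannot be told apart. Gm10602 was at 1.61 and 1.21 CPM in WT e13.5 and 0.75 and 0.0791 in KO e13.5. In adults it was at 2.56 and 1.86 CPM in WT and 0.593 and 2.12 in KO. How far the size of the Folr2 difference rests on this overlap was not tested. Mrc1, the mannose receptor, rose from 2.67 and 4.75 to 44 and 22.2 CPM in WT (3.15 ± 0.59, 0.00314) and from 2.63 and 5.54 to 33.7 and 33.5 in KO (3.03 ± 0.59, 0.00344). Mrc1, Cd163 and Folr2 passed the threshold in both genotypes under every alternative that was run, and Timd4 under every one in which it was tested. Pf4, a chemokine stored in platelets and also made by resident macrophages, did not follow them, with 3.83 and 4.17 CPM in WT e13.5, 9.38 and 5.74 in KO e13.5, 6.05 and 3.44 in WT adults and 16.1 and 4.77 in KO adults. Its log2 differences were 0.25 ± 0.64 and 0.47 ± 0.64 (adjusted p 0.78 and 0.566), and its libraries overlapped between the ages.

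C1q is built from 3 chains, A, B and C, which macrophages express together. The genes lie side by side on the minus strand of chromosome 4 of GRCm38, C1qb at chr4:136880129-136886187, C1qc at chr4:136889804-136893065 and C1qa at chr4:136895917-136898803. C1qa was at 5.48 and 3.93 CPM in WT e13.5, 6.25 and 13.2 in KO e13.5, 37.4 and 24.1 in WT adults and 60.7 and 25.7 in KO adults. It rose by 2.71 ± 0.60 in WT and 2.15 ± 0.58 in KO (adjusted p 0.00703 and 0.0164). C1qb was at 11.2 and 8.51 CPM in WT e13.5, 12.8 and 17.6 in KO e13.5, 30.6 and 23.6 in WT adults and 54.9 and 22.5 in KO adults. The gene was higher in WT adults (1.46 ± 0.52, 0.0479) and short of the threshold in KO (1.35 ± 0.51, 0.0595). For C1qc the libraries held 1.75 and 5.51 CPM in WT e13.5, 0.375 and 11.9 in KO e13.5, 32.9 and 19.8 in WT adults and 58.6 and 20.2 in KO adults. All 3 chains had every adult library above every e13.5 library of their genotype, but C1qc missed the threshold in both (2.85 ± 1.18 and 2.66 ± 1.17, adjusted p 0.0809 and 0.0922). Its spread came from the embryos, where library 1 of each genotype was far below library 2. Per kilobase of exon, C1qc was 0.172 of C1qa in WT e13.5 library 1 and 0.756 in library 2, 0.0323 and 0.488 in the KO e13.5 libraries, and between 0.423 and 0.519 in all 4 adult libraries. The ratio of C1qb to C1qa was 1.94 and 2.07 in WT e13.5 and 1.96 and 1.27 in KO e13.5, and 0.783 to 0.934 in adults, so C1qb led in each embryonic library and C1qa in each adult library. The WT calls ended in single libraries left out, for C1qa without WT adult replicate 1 (adjusted p 0.052) and for C1qb without any 1 of the 4 WT libraries (up to 0.231). The WT call of C1qb also ended under upper quartile scaling. The KO call of C1qa ended without KO e13.5 replicate 1 or KO adult replicate 1 (up to 0.132).

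**Figure D3:**
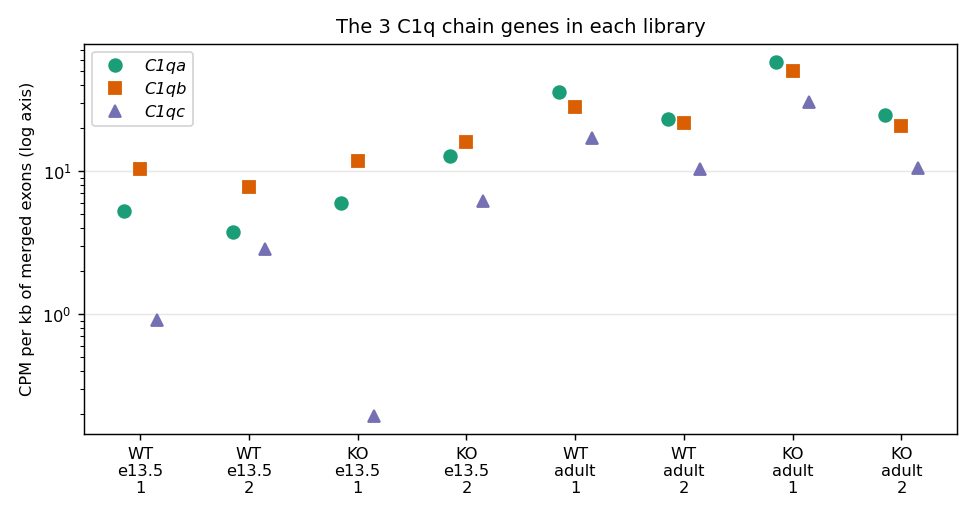
The 3 C1q chain genes in each of the 8 libraries, in CPM per kilobase of merged exons on a log axis. C1qc drops to 0.194 in KO e13.5 library 1 while C1qa and C1qb stay at 6.01 and 11.8, and C1qa lies above C1qb in the 4 adult libraries only.

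Ccr2, which marks macrophages recruited from monocytes, was at 0.23 and 0.275 CPM in WT e13.5 and 0.625 and 0.277 in KO e13.5, close to the 3-count level of a library in 3 of the 4, and at 1.34 and 1.45 in WT adults and 4.15 and 3.84 in KO adults. It was higher in adults of both genotypes, by 2.42 ± 0.74 in WT and 3.16 ± 0.73 in KO on the log2 scale (adjusted p 0.0273 and 0.0082). It passed the filter on low counts through adults alone, so a difference is partly set by the filter. The WT call ended when any 1 of the 4 WT libraries was left out (adjusted p up to 0.117). As a share of CPM, not corrected for gene length, it made up 0.859 to 2.94% of the summed CPM of Ccr2 and the 6 resident genes in adult libraries, and 1.7 to 4.48% at e13.5.

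Of the 14 macrophage and myeloid genes, 3 were higher in WT adults (Csf1r, Adgre1 and Itgam) and 4 in KO adults (Csf1r, Itgam, Lyz2 and Fcgr1), none was lower, and the medians were 0.52 and 1.01. Over all genes 17.8% were higher in WT and 20.5% in KO, so these counts of higher members are near that share. Itgam, the alpha chain of the complement receptor CR3, had the largest difference of them, from 0.0461 and 0.792 to 9.37 and 4.96 CPM in WT (4.03 ± 1.0, adjusted p 0.0116) and from 0.125 and 0.475 to 12.4 and 8.88 in KO (5.05 ± 1.06, 0.00512). The WT call ended without WT adult replicate 1 (adjusted p 0.0553), and another gene model, Gm49368, covers 68.7% of the exon bases of Itgam on the same strand, so its counts could be split. Gm49368 was at 1.06 and 1.03 CPM in WT e13.5 and 0.563 and 0.712 in KO e13.5, above Itgam in each of these libraries. In adults it was at 0.408 and 0 CPM in WT and 0.461 and 0.862 in KO. How far the size of the Itgam difference, and its place as the largest, rest on this split was not tested. Csf1r, the receptor on which macrophages depend, was at 7.6 and 17.9 CPM in WT e13.5, 8.94 and 26.6 in KO e13.5, 61.8 and 36.8 in WT adults and 80.4 and 47.2 in KO adults. It rose by 1.95 ± 0.65 and 1.84 ± 0.65 (adjusted p 0.0384 and 0.044), close to the threshold. Its calls ended when 1 of several libraries was left out, among them either adult library of either genotype (adjusted p up to 0.199 in WT and 0.2 in KO). The KO call of Csf1r also ended under upper quartile scaling. Hmgxb3, with 2751 counts over all libraries, overlaps 15.1% of the exon bases of Csf1r on the other strand. Its part in the Csf1r values was not tested. Adgre1, the F4/80 antigen, rose from 2.03 and 2.41 to 15.2 and 8.2 CPM in WT (2.39 ± 0.55, 0.00806), and without WT adult replicate 1 it did not pass (0.0916). In KO its libraries held 3.88 and 6.88 CPM at e13.5 and 15.4 and 12.2 in adults (1.35 ± 0.53, 0.0625).

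Lyz2 was at 32.6 and 24.1 CPM in WT e13.5, 62.8 and 15.8 in KO e13.5, 110.4 and 63.5 in WT adults and 202 and 128 in KO adults. It passed in KO (2.07 ± 0.65, adjusted p 0.0293) but not in WT (1.62 ± 0.64, 0.0697). The KO call ended without KO e13.5 replicate 2 or either KO adult library (adjusted p up to 0.14). Lyz1, its neighbour with 95.8% identity over 1264 of 1316 transcript bases, held between 2 and 75 counts in a library, so reads could be shared between the genes. Fcgr1, the high-affinity receptor for IgG, was at 0.277 and 0.585 CPM in WT e13.5 and 2.1 and 1.03 in WT adults (1.83 ± 0.78, 0.0864). In KO it went from 0.563 and 0.791 to 4.74 and 2.39 CPM (2.38 ± 0.77, 0.0338), a call that ended when any 1 of the KO libraries or WT adult libraries was left out (up to 0.174). The adaptors that carry signals from such receptors did not pass in either genotype. Fcer1g, the Fc receptor gamma chain, was at 5.21 and 5.34 CPM in WT e13.5, 9 and 5.7 in KO e13.5, 4.48 and 3.1 in WT adults and 8.04 and 2.12 in KO adults. Fcer1g had log2 age differences of -0.47 ± 0.65 in WT and -0.53 ± 0.65 in KO. Tyrobp, also known as DAP12, was at 3.92 and 4.48 CPM in WT e13.5, 6.06 and 5.82 in KO e13.5, 3.32 and 2.2 in WT adults and 8.63 and 3.18 in KO adults. Tyrobp had log2 age differences of -0.60 ± 0.59 in WT and -0.01 ± 0.58 in KO. Per kilobase of exon, the level of Tyrobp was 1.9 to 5.87 times that of Csf1r in the e13.5 libraries and 0.465 to 0.929 times in the adult ones.

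The other myeloid genes did not pass in either genotype. Cd68, a lysosomal glycoprotein, was at 4.15 and 3.96 CPM in WT e13.5, 8.69 and 6.45 in KO e13.5, 6.58 and 4.06 in WT adults and 11.3 and 4.04 in KO adults. Cd68 had log2 age differences of 0.39 ± 0.59 in WT and 0.02 ± 0.58 in KO. Ctss, the lysosomal protease cathepsin S, was at 7.19 and 8.99 CPM in WT e13.5, 19.7 and 13.6 in KO e13.5, 11.2 and 7.02 in WT adults and 19.2 and 12.2 in KO adults. Ctss had log2 age differences of 0.17 ± 0.48 in WT and -0.09 ± 0.48 in KO. Aif1, a calcium-binding protein also called Iba1, was at 0.968 and 1.07 CPM in WT e13.5, 1.31 and 1.74 in KO e13.5, 1.11 and 0.413 in WT adults and 1.52 and 0.928 in KO adults. Aif1 had log2 age differences of -0.41 ± 0.77 in WT and -0.32 ± 0.76 in KO. The adult and e13.5 libraries of these 3 genes are close to each other set against their spread within groups. Cd14, the co-receptor for bacterial lipopolysaccharide, was at 4.47 and 3.99 CPM in WT e13.5, 29.2 and 7.76 in KO e13.5, 7.74 and 5.51 in WT adults and 8.96 and 9.28 in KO adults. KO e13.5 library 1 stood above all others. Its log2 age differences were 0.65 ± 0.61 in WT and -1.02 ± 0.61 in KO. The KO value was called lower without KO e13.5 replicate 2 (adjusted p 0.0303) and turned to 0.25 without KO e13.5 replicate 1. Mpeg1, which encodes the pore-forming protein perforin-2, was at 0.507 and 6.13 CPM in WT e13.5, 0.75 and 4.15 in KO e13.5, 12.3 and 5.03 in WT adults and 18.4 and 10.4 in KO adults (1.38 ± 1.05 and 2.53 ± 1.09), with library 1 lowest in both e13.5 groups. Spi1, the gene of PU.1 itself, was low throughout, at 1.57 and 4.89 CPM in WT e13.5, 0.625 and 6.53 in KO e13.5, 4.19 and 1.72 in WT adults and 7.97 and 3.51 in KO adults. Spi1 had log2 age differences of -0.13 ± 0.99 in WT and 0.67 ± 0.99 in KO. The fractalkine receptor Cx3cr1 differed by -0.75 ± 0.64 in WT and 1.55 ± 0.62 in KO with age (adjusted p 0.37 and 0.0697), and its levels are given with the genotypes below.

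None of the 4 genes of all leukocytes passed the age test in either genotype, with medians of -0.40 in WT and 0.18 in KO. Ptprc, the CD45 phosphatase, was at 0.968 and 6.89 CPM in WT e13.5, 1.5 and 2.73 in KO e13.5, 9.31 and 5.79 in WT adults and 5.86 and 11.8 in KO adults. Its log2 age differences were 0.94 ± 0.82 in WT and 2.05 ± 0.85 in KO (adjusted p 0.386 and 0.0775). Over the alternatives the WT value of Ptprc ran from 0.27 to 2.97, the latter without WT e13.5 replicate 2, the library with 6.89 CPM. In KO both adult libraries lay above both e13.5 libraries, and 7 of 20 alternatives, DESeq2 and no filter among them, called it higher. Laptm5, a lysosomal membrane protein of blood cells, was at 14.3 and 21.7 CPM in WT e13.5, 23.7 and 30.3 in KO e13.5, 21.2 and 11.9 in WT adults and 38.8 and 16.4 in KO adults. Its log2 age differences were -0.12 ± 0.53 and 0.03 ± 0.53, so its share of the summed level of the 32 genes went from 12% to 3.78% in WT and from 12.2% to 4.27% in KO. Coro1a, a leukocyte actin regulator, was at 9.91 and 19.6 CPM in WT e13.5, 11.5 and 16.1 in KO e13.5, 7.51 and 4.34 in WT adults and 13.9 and 5.57 in KO adults. Coro1a had log2 age differences of -1.31 ± 0.60 in WT and -0.50 ± 0.59 in KO. In WT both adult libraries of Coro1a lay below both e13.5 libraries. With a replicate block within each age it was called lower in WT (edgeR, adjusted p 0.0126). Cd52, a short surface glycoprotein of lymphocytes and monocytes, was at 1.98 and 1.76 CPM in WT e13.5, 2.06 and 1.58 in KO e13.5, 1.57 and 0.758 in WT adults and 3.49 and 1.06 in KO adults. Cd52 had log2 age differences of -0.67 ± 0.75 in WT and 0.32 ± 0.74 in KO.

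The neutrophil genes were lower in adults. Both passed the filter on low counts through e13.5 alone, so their difference is partly set by the filter. S100a8 and S100a9 encode the 2 subunits of calprotectin, the main cytosolic protein of neutrophils. S100a8 was at 1.8 and 1.21 CPM in WT e13.5, 0.938 and 0.831 in KO e13.5, 0 and 0 in WT adults and 0 and 0.0663 in KO adults. It was at least 15.4-fold lower in WT adults and 26.4 times lower by counts in KO adults (4.45 to 1071). Adjusted p was 0.00633 and 0.0223, and the KO call ended without KO e13.5 replicate 1 or either KO adult library (up to 0.109). S100a9 was at 1.75 and 0.895 CPM in WT e13.5, 0.563 and 0.356 in KO e13.5, 0.0582 and 0 in WT adults and 0.132 and 0.0663 in KO adults. That is 39.98 times lower by counts in WT adults (6.92 to 1604, adjusted p 0.0122) and 4.4 times lower in KO adults (1.28 to 23.3, 0.154), which did not pass. The WT call ended without WT e13.5 replicate 1 or either WT adult library (up to 0.111). The lymphocyte genes were near the limit of detection. Cd3e, of the T cell receptor complex, was at 0.138 and 2.58 CPM in WT e13.5, 0 and 0.435 in KO e13.5, 0.175 and 0.0689 in WT adults and 0.329 and 0 in KO adults. Cd79a, of the B cell receptor, was at 0.138 and 0.344 CPM in WT e13.5, 0.0625 and 0.0791 in KO e13.5, 0.233 and 0 in WT adults and 0.329 and 0.0663 in KO adults. WT e13.5 library 2 alone held more than 1 CPM of Cd3e. Its log2 age difference in WT was -3.40 ± 1.80 (adjusted p 0.157), which passed with no filter (adjusted p 0.043), and Cd79a was not tested.

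KO against WT gave no called member. At e13.5 0 of 31 passed, where 0.0722% of all genes tested did, in adults 0 of 31, where 0.0481% did, and averaged over both ages 0 of 31, where 0.12% did (edgeR, adjusted p below 0.05 in either direction). At an unadjusted p below 0.05 there were 2 members at e13.5 (Cd14 and Adgre1), 2 in adults (Cx3cr1 and Ccr2) and 6 in the average (Cx3cr1, Ccr2, Folr2, Ctss, Cd14 and Pf4), each higher in KO. Over all genes tested that unadjusted threshold was passed by 2.39%, 2.27% and 2.83%. DESeq2 called 1 member, Cx3cr1 in adults, and 0 at e13.5 and in the average. Over all genes DESeq2 called 54 in adults, 30 at e13.5 and 59 in the average, where edgeR called 8, 12 and 20. The median of the members was 0.48 at e13.5 and 0.67 in adults on the log2 scale, against -0.07 and 0.01 over all genes tested. Fitted values were positive for 21 of 31 members at e13.5 and for 30 of 31 in adults, where those of S100a8 and S100a9 rest on 3 counts or fewer.

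**Figure D4:**
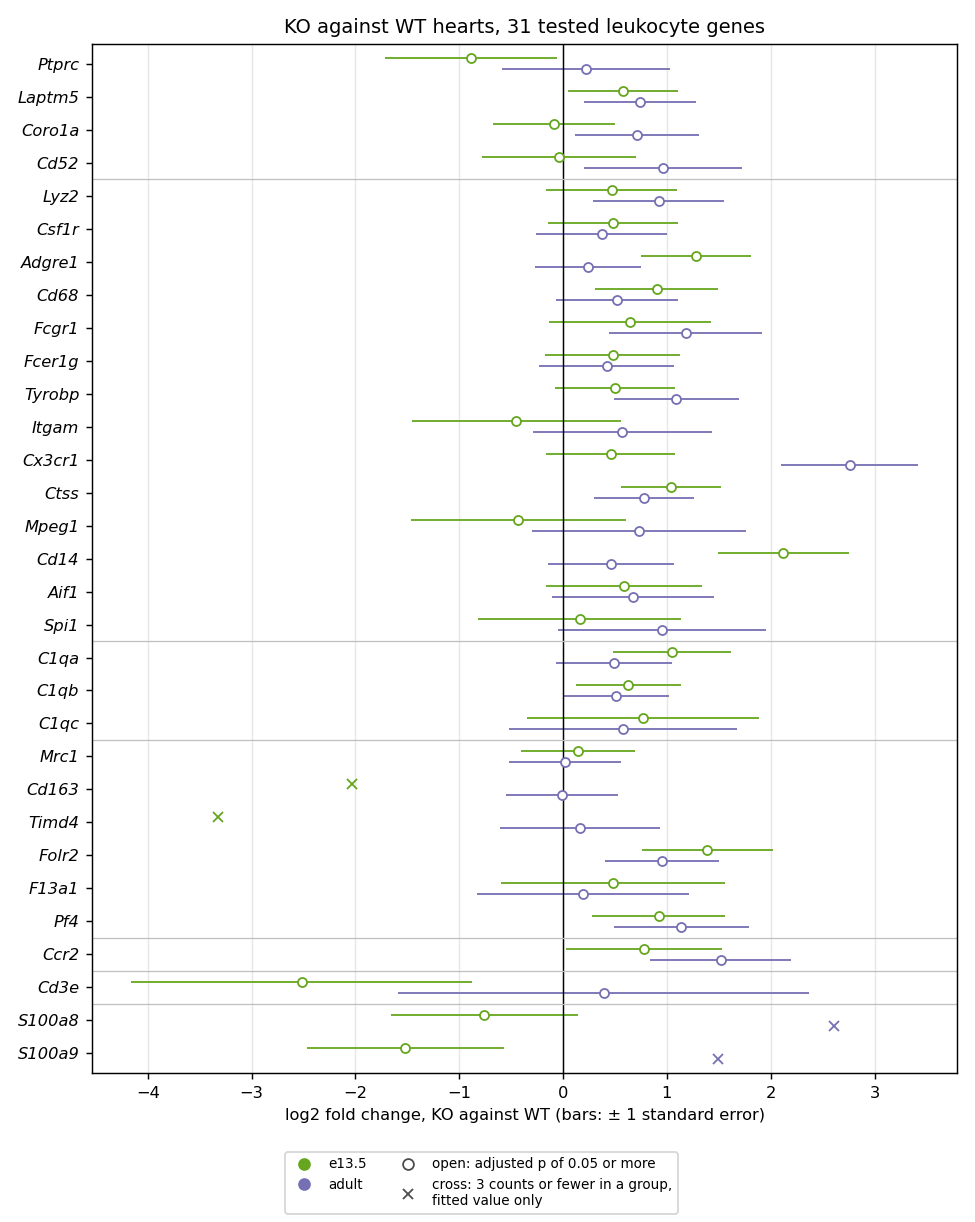
Log2 fold change of KO against WT for the 31 tested leukocyte genes, at e13.5 and in adults, with bars of 1 standard error; open points missed an adjusted p of 0.05 and crosses mark fitted values that rest on 3 counts or fewer in a group. Most points lie right of 0, Cx3cr1 in adults (2.76) and Cd14 at e13.5 (2.12) farthest among the points with bars, and none is filled.

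Cx3cr1, at chr9:119901616-120069879 in GRCm38, is the receptor for fractalkine on monocytes and on part of the resident macrophages, and of the genes with over 3 counts in each group it differed most between the adult genotypes. Its libraries held 1.24 and 2.51 CPM in WT e13.5, 1.94 and 3.24 in KO e13.5, 0.931 and 1.31 in WT adults and 9.62 and 5.63 in KO adults. Both KO adult libraries lay above both WT adult libraries, and at e13.5 the genotypes overlapped. The adult difference was 2.76 ± 0.66 on the log2 scale with an adjusted p of 0.594 in edgeR and 0.0466 in DESeq2, and its value ran from 2.33 to 3.1 over the alternatives (adjusted p 0.0466 to 1). The interaction of genotype and age was 2.30 ± 0.89 for Cx3cr1 (unadjusted p 0.0276, adjusted p 1, edgeR), and 0 of 31 members and 0% of all genes passed that test, with 265 genes and 1 member at an unadjusted p below 0.05. Its ligand Cx3cl1 had a log2 difference of 0.73 ± 0.51 between the adult genotypes, with overlapping libraries.

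Ccr2 had both KO libraries above both WT libraries at each age, by 0.78 ± 0.75 at e13.5 and 1.52 ± 0.68 in adults (adjusted p 1 and 1). At e13.5 Ccr2 held 8 counts in WT library 2 and 7 in KO library 2 (0.275 and 0.277 CPM), so their order rests on scaling. Its share of the level of Ccr2 and the resident genes was 0.859 and 1.55% in WT adults and 2.54 and 2.94% in KO adults. Cd14 at e13.5 differed by 2.12 ± 0.63 (adjusted p 1), which fell to a fitted 0.87 without KO e13.5 replicate 1, the library with 29.2 CPM. Adgre1 at e13.5 held 2.03 and 2.41 CPM in WT and 3.88 and 6.88 in KO (1.28 ± 0.53, adjusted p 1). Folr2 held 8.21 and 5.37 CPM in WT adults and 16.3 and 10.1 in KO adults (0.95 ± 0.55, 1). The log2 differences of the other resident genes in adults were 0.02 ± 0.54 for Mrc1, -0.01 ± 0.54 for Cd163, 0.19 ± 1.02 for F13a1, 0.16 ± 0.77 for Timd4 and 1.14 ± 0.65 for Pf4, each with overlapping libraries. At e13.5 no fold of Cd163 or Timd4 between the genotypes was taken, since both groups held 3 counts or fewer, and the same holds for S100a8 and S100a9 in adults.

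**Figure D5:**
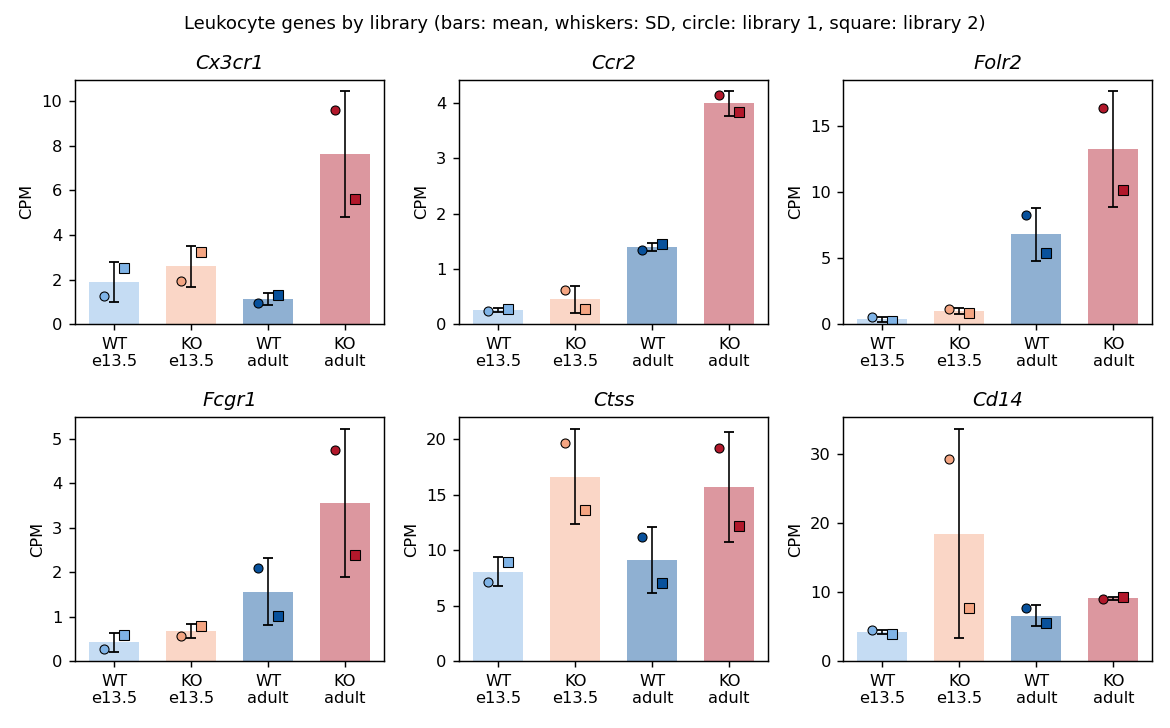
Levels of Cx3cr1, Ccr2, Folr2, Fcgr1, Ctss and Cd14 in CPM in the 4 groups, genes picked after their values were seen; bars are means of 2 libraries, whiskers the SD, circles library 1 and squares library 2. KO adult libraries lie above WT adult libraries in all 6 panels, by the widest margin for Cx3cr1 and Ccr2, and in the Cd14 panel KO e13.5 library 1 (29.2 CPM) stands far above library 2 (7.76 CPM).

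Counted by libraries, 13 members (41.9%) had both KO libraries above both WT libraries at e13.5, where 6.77% of all genes tested did, and 3 (9.68%) had both below, where 8.65% did. The 3 below were Timd4, S100a8 and S100a9, of which Timd4 held 1 and 2 counts in WT and 0 and 0 in KO. Among the 13, Ccr2 had KO library 2 at 0.277 CPM and WT library 2 at 0.275. Folr2 is also among the 13, while Gm10602, which overlaps it, was lower in KO (0.75 and 0.0791 CPM against 1.61 and 1.21 in WT). In adults the libraries did not overlap for 8 members (25.8%), where 27.9% of all genes did not, a similar share. In all 8 KO was the higher genotype, where of all genes 2239 were higher and 2405 lower. The 8 include S100a9, with 1 and 0 counts in WT adults and 2 and 1 in KO adults, too few for a fold. These shares describe the list and come with no test of it. The medians moved with single libraries: in adults the median of the members went from 0.67 to 0.20 without KO adult replicate 1, to 0.26 without WT adult replicate 2, to 1.17 without WT adult replicate 1 and to 1.08 without KO adult replicate 2. At e13.5 it went from 0.48 to 0.15 without KO e13.5 replicate 2, and to 0.94 without WT e13.5 replicate 2. Other cell types moved with the adult genotypes as well, since 6 of 6 endothelial genes and 6 of 6 fibroblast genes had positive KO values (medians 0.56 and 0.58, none called). KO adult replicate 1 was the highest adult library in both, with 1591 summed endothelial CPM (619 to 863 in the other adult libraries), 856 summed fibroblast CPM (322 to 519) and 809 over the 32 leukocyte genes. It was the lowest in cardiomyocyte genes (62612 CPM, 83158 to 85087 in the others). At e13.5 endothelial and fibroblast medians were -0.39 and -0.13, and summed erythroid RNA was highest in KO library 1. The part of these cell types in the leukocyte values was not tested.

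Within groups the library numbers had a pattern that bears on the values above. In both adult groups, 28 of the 32 members were higher in library 1 than in library 2. The summed level of the 6 liver genes of a marker list went the other way in these libraries. It was 0.408 and 1.12 CPM in library 1 and 47.2 and 72 in library 2 of WT and KO adults. At e13.5, 22 members in WT and 18 in KO were higher in library 2, and these were the longer genes, with median exon lengths of 3010 and 3513 bases, against 1222 and 1222 bases for those higher in library 1. Across the 32 members the Spearman correlation of exon length with the log ratio of library 2 to library 1 was 0.669 in WT e13.5 and 0.533 in KO e13.5, and across 16591 genes 0.469 and 0.322, as a description of genes that share their libraries. In KO adults these correlations were 0.419 across the members and 0.286 across all these genes, and in WT adults -0.291 and -0.0319. Ptprc, with 18313 exon bases, F13a1, with 6739, and Mpeg1, with 4334, were higher in library 2 of both e13.5 groups, and S100a9, with 522, was higher in library 1 of both. The part of this length pattern in the age and genotype values was not tested. Without library 1 of both e13.5 groups, 1 member in WT and 0 in KO were lower in adults, in place of 2 and 1.

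Other genes of the same cells, from lists that hold none of the 32, were read from the same fit. Their counts stand beside the shares over all genes, 17.8% higher and 21.1% lower in WT and 20.5% and 20.9% in KO, with medians of -0.26 and -0.15. Of 13 tested genes of resident macrophages, 7 were higher in WT adults (53.8%) and 9 in KO adults (69.2%) and none lower, with medians of 2.01 and 2.43. Slco2b1, an organic anion transporter, was at 0.415 and 1.07 CPM in WT e13.5, 0.313 and 3.28 in KO e13.5, 26.3 and 17.6 in WT adults and 35.6 and 22.7 in KO adults (4.85 ± 0.97 in WT, adjusted p 0.00435). Maf, a transcription factor of mature macrophages, rose by 2.73 ± 0.62 in WT and 2.94 ± 0.63 in KO, and Clec10a, a C-type lectin, by 4.82 ± 1.14 in WT and 58.6 times by counts in KO (19.6 to 288). Ltc4s, the leukotriene C4 synthase, rose by 4.99 ± 0.97 in KO, and with Slco2b1, Lyve1, Cbr2 and Fcna it rose in both genotypes. Among 5 tested monocyte genes, Ly6c2 rose (4.61 ± 1.35 and 4.10 ± 1.38) and Plac8 fell (-4.90 ± 0.96 and -3.26 ± 0.91) in both. Of 7 tested ligands of Csf1r and of chemokine receptors, Csf1 rose from 7.6 and 12.5 to 53.3 and 54.5 CPM in WT (2.42 ± 0.54). In KO it rose from a mean of 9.78 ± 5.25 CPM (SD, n = 2) to 68.6 ± 26.4 CPM (SD, n = 2) (2.81 ± 0.55). Il34, the other ligand, rose by 5.18 ± 1.05 in WT and 128 times by counts in KO (22.5 to 5116). Ccl2, a ligand of Ccr2, fell in both, from 16.6 and 16.5 to 2.62 and 1.31 CPM in WT (-3.06 ± 0.60) and from 32.3 and 13.9 to 2.17 and 1.66 in KO (-3.59 ± 0.61).

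Of 19 tested genes of Fc receptor and ITAM signalling (the pathway of Fcer1g and Tyrobp), 2 were higher (10.5%) and 1 lower in WT adults, and 3 higher (15.8%) in KO adults, below the shares over all genes. The inhibitory receptor Fcgr2b rose by 3.46 ± 0.82 in WT and 3.98 ± 0.84 in KO. Cybb, the catalytic subunit of the phagocyte oxidase, rose by 1.89 ± 0.67 and 1.97 ± 0.67, whereas its partner Cyba fell in WT (-1.85 ± 0.58), and the kinase Syk rose in KO (2.08 ± 0.60). Of 8 tested neutrophil and granule genes, 5 were lower in WT adults and 4 in KO adults, among them Mpo, the myeloperoxidase of granules, at least 36.9-fold lower in WT and at least 87.3-fold lower in KO. Prtn3, another granule protease gene, was at least 9.58-fold lower in WT and at least 12-fold lower in KO, Cxcr2 at least 7.5-fold lower in WT and Ngp at least 7.33-fold lower in KO. Among platelet genes, Itga2b and Gp9 were lower in both genotypes, with -4.19 ± 0.68 and -4.24 ± 0.67 for Itga2b, the platelet integrin chain, and 28.1 times fewer counts in WT for Gp9 (4.79 to 1135). Of 5 mast cell genes, Cpa3, a mast cell protease, fell in both (-5.64 ± 0.91 and -2.41 ± 0.75) and Hdc in WT (-2.41 ± 0.84). Of 9 tested lymphocyte genes, Lck, a kinase of T cells, fell (-5.37 ± 0.73 and -4.46 ± 0.71) and Ighm, the heavy chain of IgM, rose (2.29 ± 0.64 and 2.16 ± 0.63) in both, and Gzmb fell in KO, 44 times by counts (7.6 to 1766). Of 3 tested dendritic cell genes, Clec9a rose in both (3.17 ± 0.77 and 3.70 ± 0.86), Zbtb46 rose in KO (2.80 ± 0.69) and Xcr1 fell in WT, 17.5 times by counts (2.89 to 715). Of the genes named here and just before, Clec10a, Ltc4s, Fcna, Ly6c2, Il34 and Clec9a passed the filter on low counts through adults alone. Plac8, Mpo, Prtn3, Cxcr2, Ngp, Itga2b, Gp9, Cpa3, Lck, Gzmb and Xcr1 passed it through e13.5 alone. Their differences are partly set by the filter. The counts of these short lists describe them and come with no test. All fold changes in this and the preceding paragraph that are called risen or fallen had an edgeR adjusted p below 0.05, and no gene of these lists passed between KO and WT at either age.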

How the data were processed

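The deposited table holds estimated counts per gene (expected counts), which were made with RSEM on mm10, per the submitters' processing notes; RNA (200 ng per library) was amplified with Smart-seq2, per the labels' protocols. The values are whole numbers with differing totals of 16495084 to 20395600, and were read as counts that are not scaled. For strand, aligner and annotation the sources used here give nothing. Of 51826 identifiers 51633 matched GENCODE vM21. A quasi-likelihood model with 4 group means was fitted to all 8 libraries (R 4.3.3, edgeR 4.0.16, TMM, filterByExpr, 16623 genes, 4 residual degrees of freedom, median biological coefficient of variation 0.428), two-sided, with Benjamini-Hochberg adjustment over all genes and a threshold of 0.05. The fit was tested on simulated data. Near copies were searched with BLAST 2.17.0, and tables were made in Python 3.11.15.

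The 32 genes and all lists were chosen with earlier results of these data known. Members with at least 10 counts in a group are given by library, and the rule took from each other list the 3 called genes of smallest p per comparison; other called genes of these lists were named after their values were seen, and lists of cells that are not leukocytes are given as sums and medians. DESeq2 1.42.0, other filters and scalings, a replicate block and each library left out were alternatives. Protein sequences had been planned and were not used here. One gene of the platelet list is not reported here.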

Additional observations from a re-analysis of the deposited data

How the results depend on the processing

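No called value changed direction in an alternative. Values short of the threshold did, such as Cd14 for age in KO (-1.02, from -1.68 to 0.27) and, for KO against WT at e13.5, Lyz2 (0.47, from -0.85 to 1.16), C1qc (0.77, from -3.24 to 1.82) and Ptprc (-0.89, from -1.56 to 1.15). KO against WT had 0 called members in every alternative except DESeq2, which called 1, Cx3cr1, higher in KO adults. Of the age counts, the 11 members higher in WT adults ranged from 5 to 13 and the 2 lower from 1 to 2 with each library left out. The 11 members higher in KO adults ranged from 6 to 16 and the 1 lower from 0 to 2. A stricter filter, 5 CPM or more in 2 libraries, left 0 lower in either genotype, since S100a8 and S100a9 were not tested under it. Without library 1 of both e13.5 groups, an alternative chosen after seeing the data, 1 was lower in WT and 0 in KO. The labels do not say that replicate numbers pair the libraries. At e13.5 the deviations of WT and KO library 1 from their group means correlated at 0.552, and in adults at 0.307. With a replicate block the members higher in adults were 12 in WT and 11 in KO, and with a block within each age or at e13.5 alone 15 in WT (added Lyz2, C1qc, Fcgr1 and Mpeg1) and 17 in KO (added Ptprc, Adgre1, C1qb, C1qc, Cx3cr1 and Mpeg1). Calls over all genes rose as well, from 6463 to 9769 and 9471 in WT and from 6883 to 10120 and 9788 in KO. The summed level at e13.5, 150.5 CPM in WT and 222 in KO, was 196 and 289 with TMM without mitochondrial, haemoglobin and ribosomal RNA genes, and in KO 237 with median of ratios and 243 with upper quartile scaling. The ratio of KO to WT sums ranged from 1.29 to 1.72 at e13.5 and from 1.1 to 1.97 in adults with each library left out. Upper quartile scaling moved the median of all genes by -0.13 for age in WT and -0.20 in KO, and median of ratios by 0.12 for KO against WT at e13.5, -0.11 for age in KO and -0.13 for the interaction. Genes below about 1 CPM, such as Cd3e, Cd79a, Ccr2 at e13.5 and S100a8 in adults, are limited by depth.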
